A study of Mus musculus with 30 samples.

Results

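Immt, Slc38a9 and Rmi1 were followed across the cerebral cortex and hippocampus of mice that lack cyclooxygenase (COX)-1 or COX-2, the enzymes that turn arachidonic acid into prostanoids. They are 3 of the 7 named genes with a probe that met the study's rule for a changed gene in the cortex of both null lines with opposite signs, Immt and Slc38a9 lower in COX-1-/- and higher in COX-2-/- mice, and Rmi1 the reverse. All probes annotated to the 3 genes were taken, of 7151 genes named on the membrane, which gave 4 of its 9663 probes with a single gene symbol: 1 for Immt, 2 for Slc38a9 and 1 for Rmi1. Because cortical values chose the genes, their cortical differences between null and wild-type mice are described and not tested, and tests of these genes are given only in the hippocampus and between the regions of heterozygous mice.

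Total RNA of mice 12 weeks old was reverse transcribed with a radiolabel and hybridised to nylon cDNA arrays, 30 in all, 3 in each of 10 groups. Each region was taken from wild-type and null mice of the COX-1 line (COX-1+/+ and COX-1-/-) and from wild-type, heterozygous and null mice of the COX-2 line (COX-2+/+, COX-2+/- and COX-2-/-). All were on a mixed genetic background and were killed with pentobarbital, with no other treatment. The null alleles are present in every cell from conception, the COX-1 and COX-2 lines were kept as separate colonies with their own wild-type mice, bred from wild-type parents, and no COX-1 heterozygotes were among the arrays analysed here. The methods speak both of mice per group and of triplicate arrays, and nothing ties an array to a mouse, so p-values measure only the spread between arrays, which may be technical. Each value is a Z score, the natural log intensity of a probe in units of the standard deviation (SD) of its array, so differences in Z cannot be read as fold changes. Neither deleted gene, Ptgs1 or Ptgs2, was found on the array by symbol, so the genotypes could not be checked against their own transcripts.

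All 4 probes lie in the second of the 2 parts of the table, each standardised on its own. In the first part 5 of the 6 arrays of COX-1 cortex hold one and the same set of values. Its rows were left out for all 6, except in the SD of all differences with which the study's rule was applied here. The labelled regions could hardly be checked: 0 of 8 cortex markers and 3 of 8 hippocampus markers had a probe. Zbtb20, Tdo2 and Lct all had mean Z scores below 0 over the COX-2 line and overlapped there between cortex and hippocampus. Lct, the only one of them in the second part of the table, ran from 0.0322 to 0.172 in COX-1+/+ hippocampus against -0.362 to -0.215 in cortex, and from -0.0279 to 0.0364 against -0.447 to -0.213 in COX-1-/- mice, but it was lower in hippocampus than in cortex in COX-2+/- mice. The tissue pieces hold many cell types, and fewer cells of a type cannot be told apart from less RNA per cell.

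Immt encodes mitofilin (MIC60), the core subunit of the MICOS complex, which holds the junctions between the mitochondrial inner membrane and its cristae. Slc38a9 encodes an arginine-sensing transporter of the lysosome, which signals amino acid supply to the kinase complex mTORC1 through the Rag GTPases and Ragulator. Rmi1 encodes a subunit of the complex of the BLM helicase and topoisomerase IIIα that dissolves double Holliday junctions, the crossed strands left by recombination. Neurons depend heavily on mitochondrial and lysosomal function, while DNA recombination is mostly a matter of dividing cells. None of the 3 genes is known as a part of prostanoid synthesis.

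The promoter sequences of the 3 genes are shown because the genes were grouped by opposite differences, and a reader may want to compare their control regions. Each is the 250 bases before the first RefSeq start, on GRCm38.p6, plus strand, 5′ to 3′, at chr6:71831070-71831319 for Immt, chr13:112660516-112660765 for Slc38a9 and chr13:58401998-58402247 for Rmi1. Capitals mark a CCAAT box or a GC box (GGGCGG), on either strand.
Immt: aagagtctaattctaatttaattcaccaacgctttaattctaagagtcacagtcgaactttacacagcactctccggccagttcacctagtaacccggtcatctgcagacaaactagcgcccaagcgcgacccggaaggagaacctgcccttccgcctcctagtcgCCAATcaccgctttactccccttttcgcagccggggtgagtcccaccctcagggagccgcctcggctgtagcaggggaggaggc
Slc38a9: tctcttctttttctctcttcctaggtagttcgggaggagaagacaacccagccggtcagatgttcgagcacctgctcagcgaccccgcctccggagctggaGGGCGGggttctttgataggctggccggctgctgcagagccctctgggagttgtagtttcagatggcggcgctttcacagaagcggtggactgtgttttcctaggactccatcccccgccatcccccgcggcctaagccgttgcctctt
Rmi1: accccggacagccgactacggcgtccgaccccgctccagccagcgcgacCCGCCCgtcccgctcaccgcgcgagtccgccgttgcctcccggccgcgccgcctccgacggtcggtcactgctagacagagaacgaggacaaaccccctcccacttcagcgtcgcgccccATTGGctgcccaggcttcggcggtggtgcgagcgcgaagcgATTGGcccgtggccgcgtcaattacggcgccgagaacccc
Immt held 1 CCAAT box, Slc38a9 held 1 GC box, and Rmi1 held a pair of the first and 1 of the second, all 3 as the reverse complement. Of 32851 RefSeq promoters of this length, 33.8% held a CCAAT box and 32.7% a GC box. The E-box (CANNTG), found in 66.2% of promoters, occurred at 1 position in Immt, 3 in Slc38a9 and none in Rmi1. The TATA box (TATAAA), held by 12.4% of promoters, the cyclic AMP response element (TGACGTCA), held by 1.55%, and the NF-kappaB consensus, held by 7.25%, were searched on both strands and matched none of these 3 windows. The share of G and C was 55.6% for Immt, 60% for Slc38a9 and 72.4% for Rmi1, against a median of 52.4%. Rmi1 has another RefSeq start in the table, whose window is not shown. No motif of the 6 was in all 3 windows.

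Of the probes, 3 had a mean Z above 0, the study's limit for signal over background. The Immt probe was bright, with a mean Z of 2.14 over 30 arrays, above 97.5% of the probes of the second part. The measured Slc38a9 probe, in row 8985, had a mean Z of 0.353, and the Rmi1 probe 0.242, so both lay near the middle of the array. The other Slc38a9 probe, in row 11613, was dim, at -1.94, and below background on every array, between -2.41 and -1.58. It had the same direction as the brighter probe in COX-1-/- cortex, where it differed by -0.188, and the opposite in COX-2-/- cortex, where it differed by -0.225. It could not meet the rule and adds no measurement above background for Slc38a9.

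In the cortex, Immt was lower in COX-1-/- mice than in their wild type and higher in COX-2-/- mice than in theirs. In COX-1+/+ cortex its Z scores were 2.29, 2.39 and 2.35, and in COX-1-/- cortex 1.51, 2.10 and 1.97. In COX-2+/+ cortex they were 2.10, 1.96 and 2.08, and in COX-2-/- cortex 2.20, 2.30 and 2.30. All null arrays lay below the COX-1+/+ arrays in the COX-1 line and above the COX-2+/+ arrays in the COX-2 line, where 18.7% and 17.6% of tested probes had no overlap, and COX-1-/- replicate 1 was far below its group. The means were 1.86 ± 0.306 against 2.35 ± 0.0482 (SD, n = 3) in the COX-1 line and 2.27 ± 0.0549 against 2.05 ± 0.0741 (SD, n = 3) in the COX-2 line. The z ratio, which here sets the difference against the SD of the differences of all probes (0.0887 and 0.101 in these comparisons), was -5.49 for COX-1-/- and 2.16 for COX-2-/- mice.

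Slc38a9 moved the same way with smaller differences. Its Z scores were 0.401, 0.509 and 0.570 in COX-1+/+ cortex and 0.315, 0.239 and 0.454 in COX-1-/- cortex. The highest COX-1-/- array lay above the lowest wild-type array, so these groups overlapped. In COX-2+/+ cortex they were 0.356, 0.351 and 0.134, and in COX-2-/- cortex 0.454, 0.439 and 0.5002. These groups did not overlap, and COX-2+/+ replicate 3 was the lowest of all 30 arrays. The z ratios were -1.77 for COX-1-/- and 1.82 for COX-2-/- mice.

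Rmi1 ran the other way. Its Z scores were 0.331, 0.240 and 0.235 in COX-1+/+ cortex and 0.339, 0.424 and 0.472 in COX-1-/- cortex. In COX-2+/+ cortex they were 0.321, 0.406 and 0.2998, and in COX-2-/- cortex 0.214, 0.129 and 0.193. Neither pair of groups overlapped, although the lowest COX-1-/- array was only just above the highest wild-type array. The z ratios were 1.61 for COX-1-/- and -1.62 for COX-2-/- mice, the closest of the 3 genes to the limit of 1.5.

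**Figure D1:**
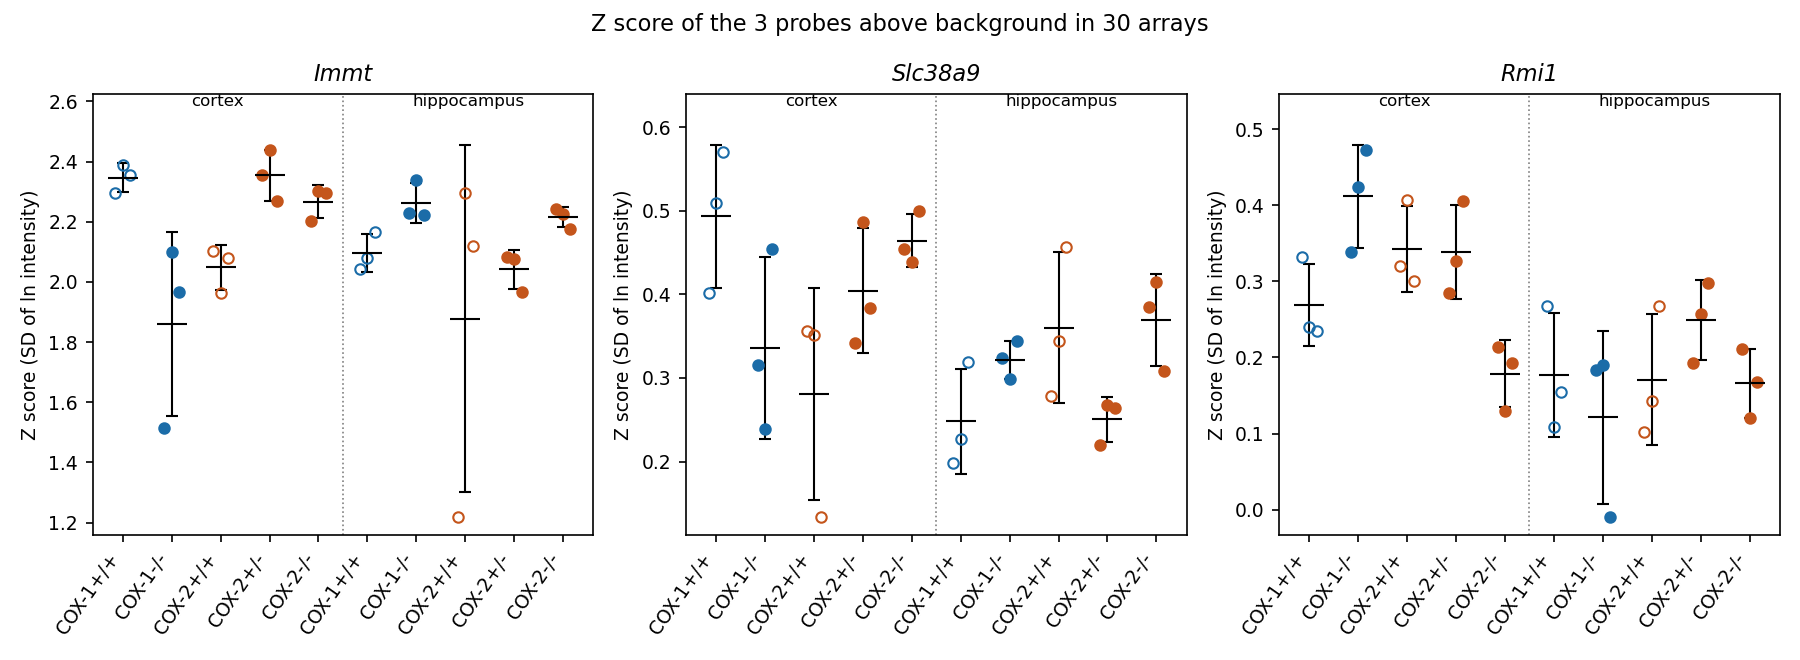
Z scores of Immt, Slc38a9 (row 8985) and Rmi1 on each array of 10 groups, cortex left and hippocampus right of the dotted line. Points are arrays, blue for the COX-1 and orange for the COX-2 line, open for wild type, and bars show the mean ± SD of 3 arrays. Immt in COX-1-/- cortex replicate 1 (1.51) and COX-2+/+ hippocampus replicate 1 (1.22) lie far below the other arrays.

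Opposite calls were few. The study's rule asks for a mean Z above 0, a P under 0.05 in a Z test and a z ratio past 1.5 in either direction. In the second part 5.61% of tested probes met it in COX-1-/- cortex, and 4.32% of those of the whole table in COX-2-/- cortex, and 12 of 4011 probes (0.299%) met it in both with opposite signs, 3 of them the probes described here. Since the rule chose these probes, nothing is read from that count. With an SD of 1 in the z ratio, that of all genes on an array, 0 probes met the rule in either line. The study's formula names that SD, but the z ratios it printed for Immt equal those with the SD of all differences. Just inside the limits, by the smaller of their z ratios, were an unnamed probe in row 16445 (-2.83 and 1.57) and Rmi1, and just outside was an unnamed probe in row 13739 (-1.49 and 1.54). The SD used in these z ratios also counted the first part of the table, with its identical COX-1 cortex values. When the SD was taken within each part, 8 opposite calls were left. Immt was the only one of the 3 genes among them, since the z ratio of COX-1-/- cortex became -1.42 for Slc38a9 and 1.29 for Rmi1. In COX-1-/- cortex Slc38a9 and Rmi1 thus met the rule with the first part in the SD and not without it.

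The wild-type groups of the lines also differed in the cortex. COX-2+/+ minus COX-1+/+ was -0.298 for Immt, -0.213 for Slc38a9 and 0.0734 for Rmi1. All 3 COX-2+/+ arrays were below all 3 COX-1+/+ arrays for Immt and Slc38a9, among 21.3% of probes without overlap, and the groups overlapped for Rmi1. Both Immt and Slc38a9 also met the study's rule between these wild-type groups, at z ratios of -2.10 and -1.50, among 2.92% of probes. Set against all 6 wild-type arrays pooled, none of the 3 genes met the rule in either line. The z ratios then were -4.43 and 0.747 for Immt, -0.666 and 0.826 for Slc38a9, and 1.39 and -1.35 for Rmi1, for COX-1-/- and COX-2-/- mice in turn. Immt in COX-1-/- mice was still past the limit of 1.5, so its call was lost through the P of the Z test.

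Heterozygous COX-2+/- cortex shares its wild-type arrays with the comparison that chose the genes and is described only. Immt was at 2.36, 2.44 and 2.27, above every COX-2+/+ array and within or above the range of COX-2-/- mice, and its z ratio against COX-2+/+ was 2.86, where 3.26% of probes met the rule and 16.3% had no overlap. Slc38a9 was at 0.342, 0.487 and 0.384, and it overlapped the wild type. Rmi1 was at 0.284, 0.326 and 0.405, and differed from the wild type by -0.00356 and from COX-2-/- mice by 0.160. The COX-2+/- arrays thus stood near the null arrays for Immt and near the wild-type arrays for Rmi1.

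The opposite pattern was looked for in the hippocampus, whose arrays had no part in choosing the genes, with limma fitted across all probes of the region. For Immt the Z scores were 2.04, 2.08 and 2.17 in COX-1+/+ and 2.23, 2.34 and 2.22 in COX-1-/- hippocampus. In COX-2+/+ hippocampus they were 1.22, 2.30 and 2.12, and in COX-2-/- hippocampus 2.24, 2.23 and 2.18. The COX-1-/- arrays were all above their wild type, the direction opposite to that in the cortex, with 21.8% of hippocampus probes free of overlap, and the COX-2 groups overlapped. Immt differed by 0.166 (SE 0.182) in COX-1-/- mice (limma adjusted p = 0.703) and by 0.337 (SE 0.182) in COX-2-/- mice (limma adjusted p = 0.460). That SE is shared by all hippocampus groups and includes the wide spread of COX-2+/+ (SD 0.578). With only the COX-1 groups in the fit, the SE of the COX-1-/- difference was 0.0578 (limma adjusted p = 0.360). Its z ratio was 1.45, just under the limit of 1.5. The effects of the lines differed by 0.171, with a 95% interval from -0.380 to 0.722 (limma adjusted p = 0.897). The COX-2-/- value and the difference between the lines rested on COX-2+/+ replicate 1, at 1.22. Without it the COX-2-/- difference was 0.00776, and the difference between the lines turned to -0.159 (SE 0.0861, limma adjusted p = 0.742).

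Slc38a9 was at 0.199, 0.227 and 0.319 in COX-1+/+ and at 0.323, 0.298 and 0.344 in COX-1-/- hippocampus. It was at 0.279, 0.345 and 0.457 in COX-2+/+ and at 0.385, 0.415 and 0.309 in COX-2-/- hippocampus. The groups of each line overlapped, and the differences were 0.0739 (SE 0.0504, limma adjusted p = 0.5005) and 0.00927 (SE 0.0504, limma adjusted p = 0.955). The effects of the lines differed by -0.0646, with a 95% interval from -0.217 to 0.0878 (limma adjusted p = 0.847).

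Rmi1 was at 0.267, 0.109 and 0.155 in COX-1+/+ and at 0.184, 0.190 and -0.00944 in COX-1-/- hippocampus. It was at 0.102, 0.143 and 0.268 in COX-2+/+ and at 0.211, 0.120 and 0.167 in COX-2-/- hippocampus. These groups overlapped too, and the differences were -0.0557 (SE 0.0630, limma adjusted p = 0.715) and -0.00447 (SE 0.0630, limma adjusted p = 0.980). The effects of the lines differed by 0.0512, with a 95% interval from -0.139 to 0.242 (limma adjusted p = 0.914).

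None of the 3 genes passed limma or met the study's rule in the hippocampus of null mice. Limma called 0.31% of 8058 probes in COX-1-/- hippocampus. It called 0 of 8040 in COX-2-/- hippocampus (0%), where 985 had an unadjusted p under 0.05, and the study's rule was met by 4.8% and 4.09%. For the difference between the lines limma called 0 of 8040 probes (0%), with 607 at an unadjusted p under 0.05. Opposite calls by the rule were 1 of 7716 probes there (0.013%). The exact permutation test of 3 arrays against 3 cannot go under 0.1, and it gave 0.1 for Immt in COX-1-/- hippocampus and 0.2 to 1 for the others.

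In COX-2+/- hippocampus, Immt was at 2.08, 2.07 and 1.97, Slc38a9 at 0.220, 0.267 and 0.264, and Rmi1 at 0.193, 0.257 and 0.297. The Slc38a9 arrays all lay below the COX-2+/+ arrays, where 33.3% of probes had no overlap, and the other groups overlapped. None of the 3 genes met the study's rule in this comparison, against 6.21% of probes. The differences from COX-2+/+ were 0.164 for Immt (limma adjusted p = 0.683), -0.110 for Slc38a9 (limma adjusted p = 0.259) and 0.0781 for Rmi1 (limma adjusted p = 0.543), where 2.82% of 8041 probes were called. Without COX-2+/+ replicate 1 the Immt difference was -0.166. Between the wild-type groups of the hippocampus, COX-2+/+ minus COX-1+/+ was -0.219 for Immt (limma adjusted p = 0.507), 0.112 for Slc38a9 (limma adjusted p = 0.202) and -0.00623 for Rmi1 (limma adjusted p = 0.965), where 5.25% of probes were called, and without COX-2+/+ replicate 1 the Immt value was 0.111.

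Levels differed between the regions in some groups. Of all probes tested, 37.4% had no overlap between hippocampus and cortex in COX-1+/+, 38.1% in COX-1-/-, 29.6% in COX-2+/+, 41.2% in COX-2+/- and 18.6% in COX-2-/- mice, so a lack of overlap was common. Rmi1 had a lower mean in hippocampus than in cortex in 5 of 5 genotypes, with differences between -0.291 and -0.0122, and without overlap in COX-1-/- and COX-2+/+ mice. Slc38a9 was lower in 4 of 5, without overlap in COX-1+/+, COX-2+/- and COX-2-/- mice. Immt was lower in 4 of 5, without overlap in COX-1+/+ and COX-2+/- mice, and higher by 0.404 in COX-1-/- mice, where no arrays overlapped. Only the COX-2+/- groups were free of the arrays that chose the genes, and there limma on the 18 COX-2 line arrays gave -0.313 (SE 0.172, adjusted p = 0.243) for Immt, -0.154 (SE 0.0602, adjusted p = 0.102) for Slc38a9 and -0.0898 (SE 0.0504, adjusted p = 0.254) for Rmi1, where 13.3% of 8008 probes passed. The SE in that fit also drew on COX-2+/+ and COX-2-/- cortex arrays, which had a part in choosing the genes. By the study's rule Immt was called, at a z ratio of -2.12, among 6.76% of probes. In these groups the hippocampus marker Lct was lower in hippocampus, at -0.574 to -0.457, than in cortex, at -0.362 to -0.247, and the microglia probes were higher, at 0.0868 to 0.129 against 0.0371 to 0.0749, and their part in the differences was not tested.

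Ordered by mean, the highest Immt levels were in COX-2+/- and COX-1+/+ cortex and the lowest in COX-2+/+ hippocampus and COX-1-/- cortex. The place of COX-2+/+ hippocampus rested on replicate 1, without which its mean was 2.21 and its place 6 of 10 from the highest. Of the 9 pairs of neighbours in that order 8 overlapped, the exception being COX-2-/- above COX-1+/+ hippocampus. Slc38a9 ran from COX-1+/+ cortex to COX-1+/+ hippocampus and Rmi1 from COX-1-/- cortex to COX-1-/- hippocampus. All 9 pairs of neighbours overlapped for both genes. Over 30 arrays, Immt and Slc38a9 had a Pearson r of 0.418, Immt and Rmi1 of -0.0609, and Slc38a9 and Rmi1 of 0.0515, given as descriptions of arrays that share their groups.

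Rows next to each other in the table tended to move together. In the second part, deviations of arrays from their group means had a mean r of 0.441 between rows next to each other within runs of 22 rows. That value was 0.212 across the end of a run and 0.0413 for rows 1000 apart. The runs were found after the data were seen, and what they stand for on the membrane is not given in the sources used here. Across 30 arrays the deviations of Immt followed the median of the other 21 rows of its run with r = 0.951, higher than 99.9% of 4128 probes above background. The r was 0.622 for Slc38a9 and 0.517 for Rmi1, against a median of 0.593. The widest Immt deviations were in COX-2+/+ hippocampus (SD 0.578) and COX-1-/- cortex (SD 0.306), against an SD of at most 0.0837 elsewhere. These arrays weigh most in the r of Immt, and its r without them was not computed.

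**Figure D2:**
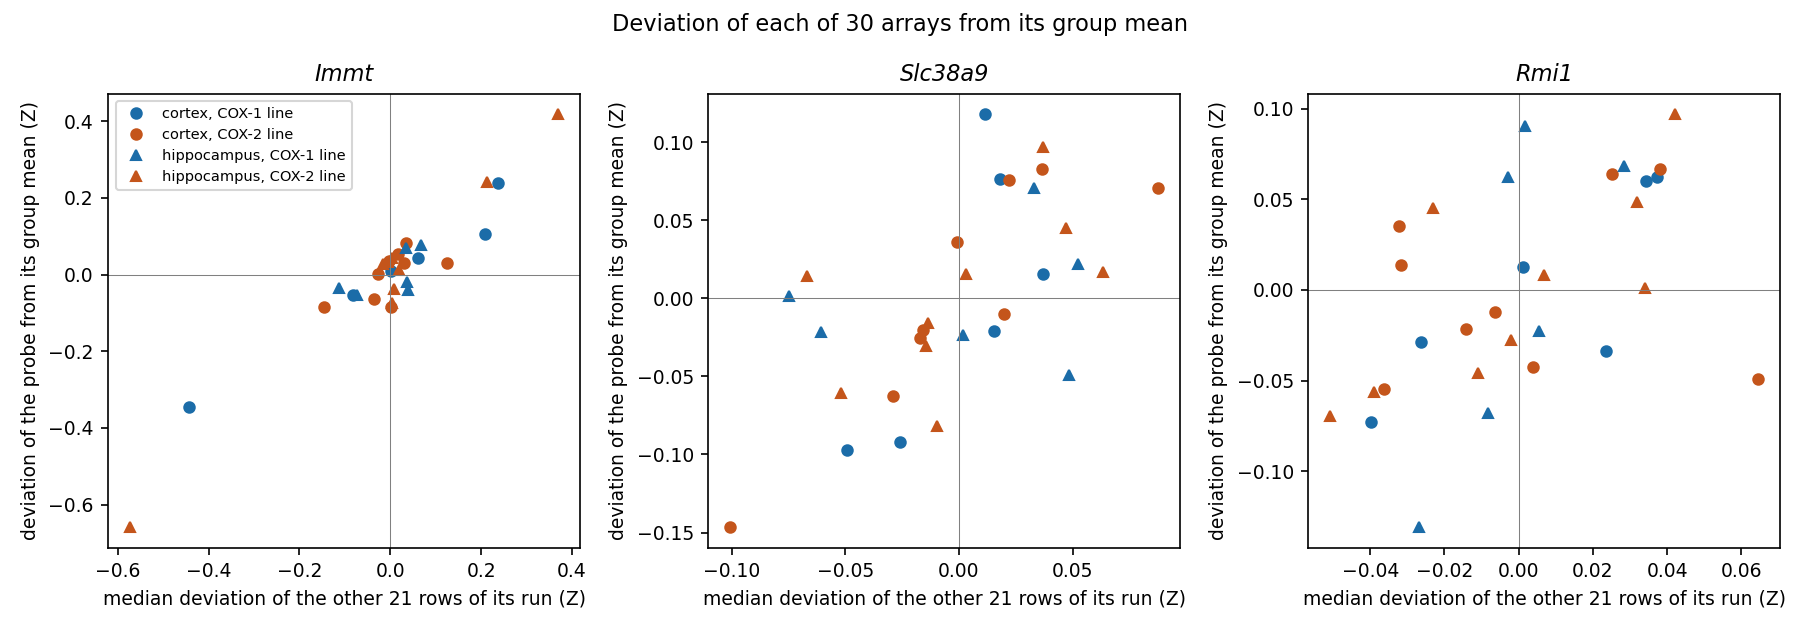
Deviation of each probe from its group mean (vertical, Z) against the median deviation of the other 21 rows of its run (horizontal, Z) on 30 arrays. Circles are cortex, triangles hippocampus, blue the COX-1 and orange the COX-2 line. Immt falls along a line (r = 0.951), with COX-2+/+ hippocampus replicate 1 at the lower end, and Slc38a9 and Rmi1 scatter more (r = 0.622 and 0.517). The widest Immt deviations are those of COX-2+/+ hippocampus and COX-1-/- cortex.

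In COX-1-/- cortex all 21 other rows of the Immt run, rows 16391 to 16412, were lower than in the wild type, with differences between -0.377 and -0.0806 and a median of -0.254. Of the 384 runs 0 had a larger median in size. In COX-2-/- cortex 18 of the 21 were higher, with a median of 0.145, and 16 of 768 runs had a larger one. In COX-2+/- cortex all 21 were higher, with a median of 0.171, and 0 of 768 runs exceeded it. The low COX-1-/- cortex replicate 1 was low across the run, at a median deviation of -0.444 against -0.345 for Immt. So was COX-2+/+ hippocampus replicate 1, at -0.573 against -0.659 for Immt. In COX-2-/- and in COX-2+/- hippocampus 21 of the 21 other rows were higher than in COX-2+/+, both with a median of 0.262.

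The runs of the other genes moved less. In the Slc38a9 run, rows 8977 to 8998, all 21 others were higher in COX-2-/- cortex, with a median of 0.0880, while 12 of 21 were lower in COX-1-/- cortex, with a median of -0.0364. In the Rmi1 run, rows 12849 to 12870, 18 of 21 were higher in COX-1-/- cortex, with a median of 0.0639, and 13 of 21 were lower in COX-2-/- cortex, with a median of -0.0341.

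**Figure D3:**
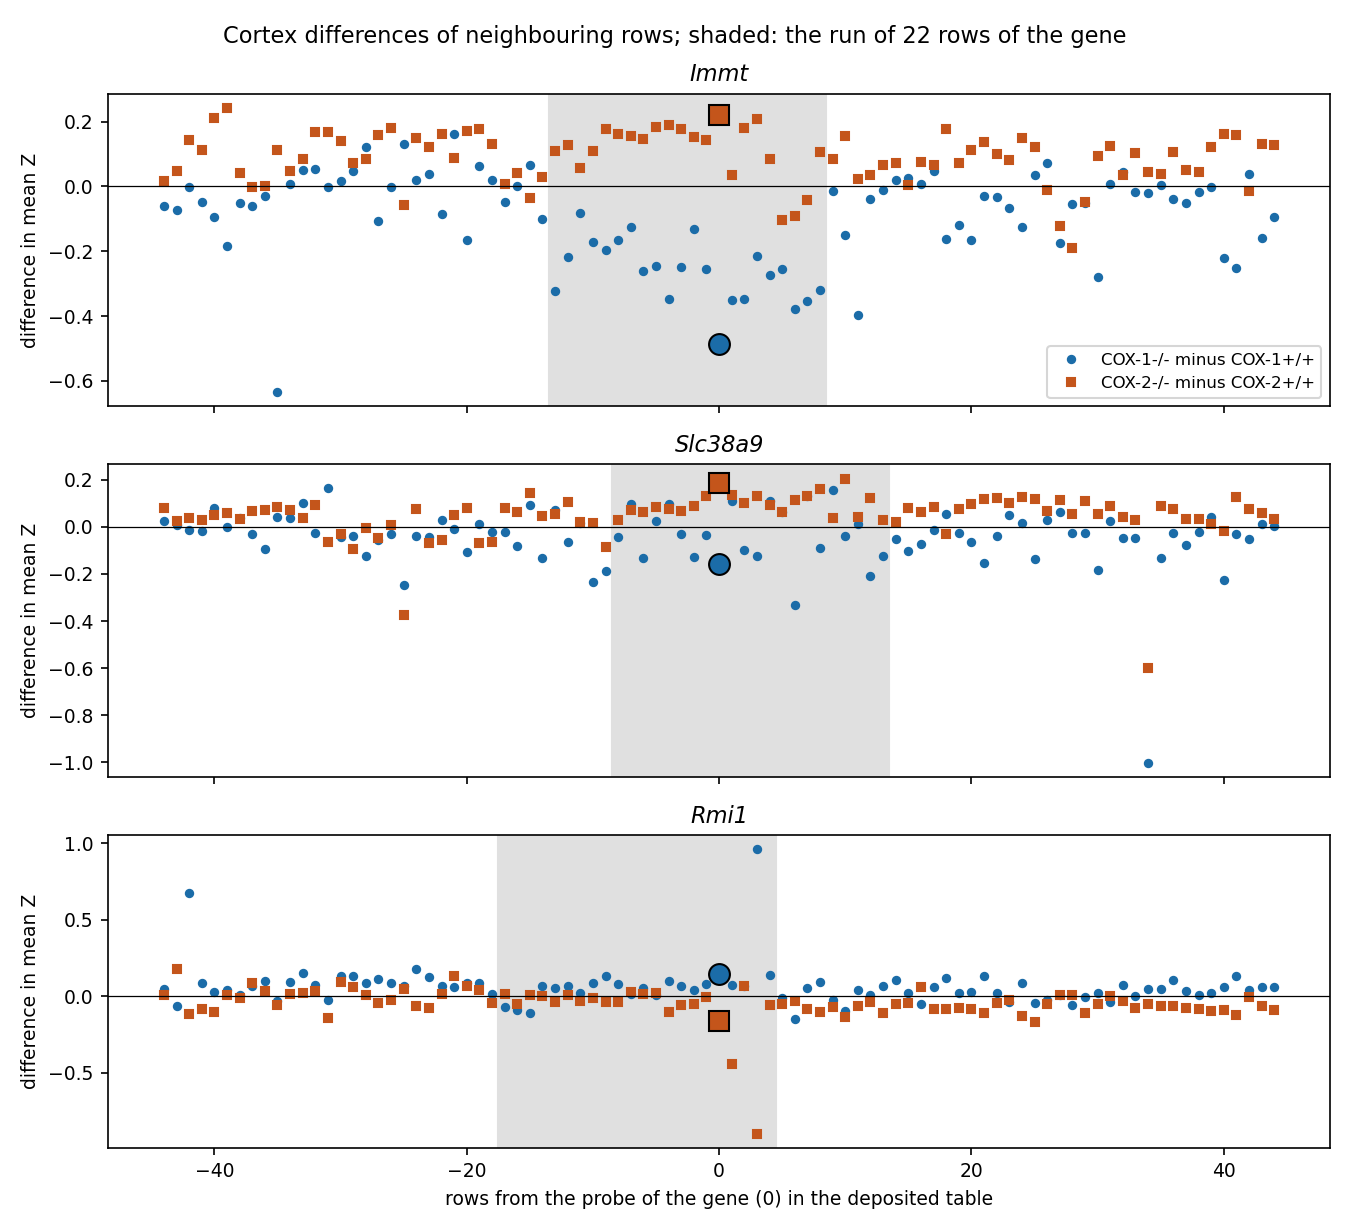
Difference in mean Z between null and wild-type cortex (vertical) for the rows up to 44 places before and after each probe in the table (horizontal), blue circles for the COX-1 and orange squares for the COX-2 line. Large outlined symbols are the probes of the named genes and the grey band is the run of 22 rows. In the Immt band all blue points lie below 0 and all but 3 orange points above it. Outside that band most orange points of the Immt panel lie above 0 too.

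When the median deviation of each run was subtracted from every array, the opposite calls fell from 12 to 1, and 0 of the 3 genes were among them. These deviations were taken from each row's mean over all arrays used together, not from group means. Differences between groups that a run shared were therefore subtracted as well. Calls in a single line fell too, from 230 to 158 probes in COX-1-/- cortex and from 346 to 161 in COX-2-/- cortex. The z ratio of Immt became -2.97 in COX-1-/- and 1.10 in COX-2-/- cortex, that of Slc38a9 -1.79 and 0.886, and that of Rmi1 1.31 and -1.66. These are the arrays that chose the genes, so the values describe what the subtraction did and test nothing. The z ratio of Immt in COX-2+/- cortex became 1.30, below the limit. Before the subtraction the 12 opposite calls lay in 9 runs, and 5 of them shared a run with another, 3 of these in rows 15841 to 15862. Immt, in row 16404, and the calls in rows 16384, 16422, 16444 and 16445 lay in consecutive runs.

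The difference between hippocampus and cortex of COX-2+/- mice passed limma after the subtraction for Immt and Slc38a9. Immt was at -0.226 (SE 0.0499, limma adjusted p = 0.00780) and Slc38a9 at -0.217 (SE 0.0402, limma adjusted p = 0.00283). The groups compared did not choose the genes, but the SE also drew on COX-2 line cortex arrays that did. The subtraction was chosen after the data were seen, so these p-values describe it and are no independent test. Rmi1 was at -0.0894 (SE 0.0438, adjusted p = 0.182), and 1171 of 8004 probes passed. Both Immt and Slc38a9 were lower in 3 of 3 hippocampus arrays than in any cortex array before the subtraction too, where 41.2% of probes had no overlap. In the hippocampus of null mice the subtraction gave Immt differences of 0.0771 in COX-1-/- (limma adjusted p = 0.514) and 0.0829 in COX-2-/- mice (limma adjusted p = 0.9996). The line difference of Immt there became 0.00585, with a 95% interval from -0.140 to 0.152 (limma adjusted p = 0.988).

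**Figure D4:**
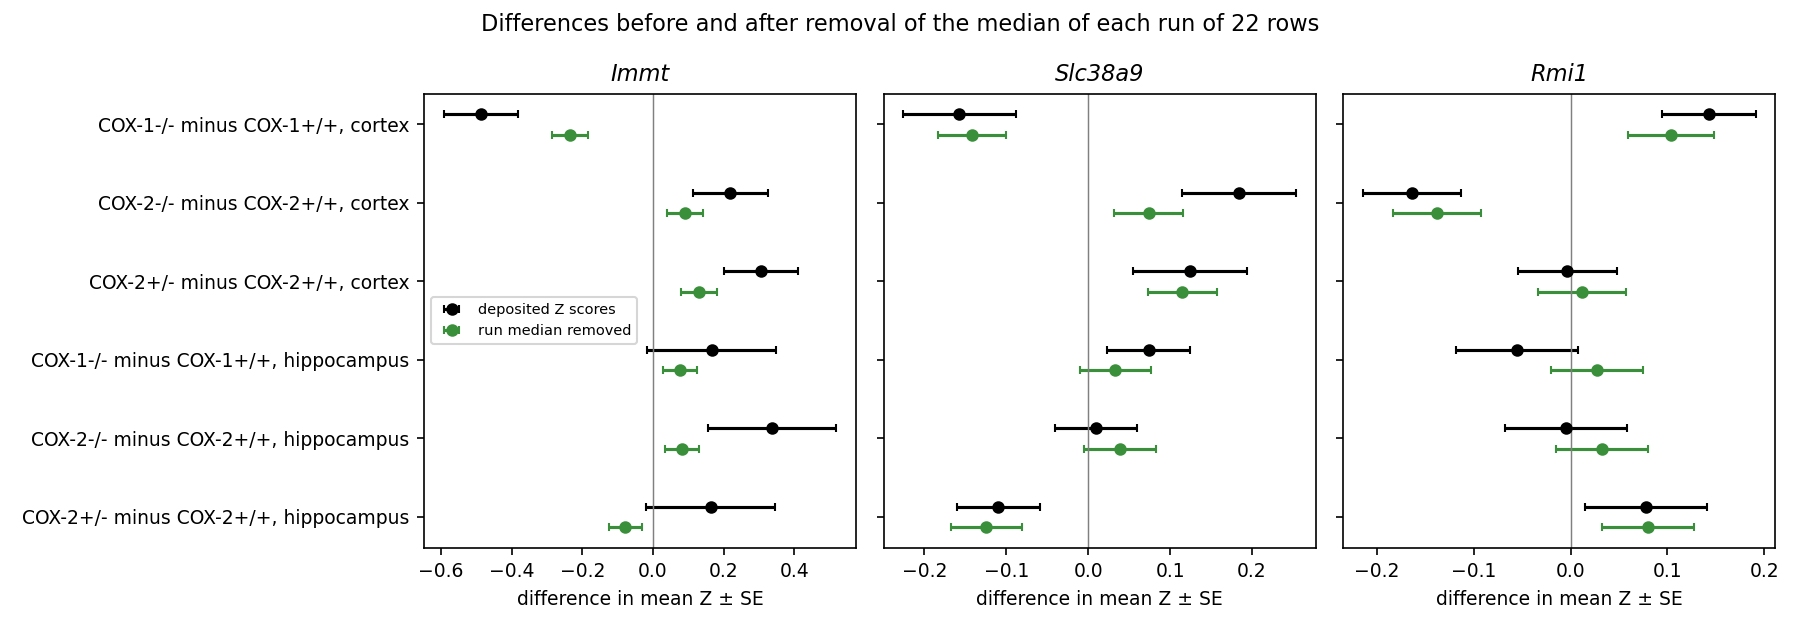
Differences in mean Z ± SE from limma (horizontal) for 6 comparisons of null or heterozygous with wild-type mice (vertical), black for the deposited Z scores and green after the median of each run of 22 rows was removed. For Immt the COX-1-/- cortex value moved from -0.487 to -0.235 and the COX-2-/- cortex value from 0.219 to 0.0911.

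The probes of other genes with the most similar profile were taken over the 24 arrays that hold their own values for every row. For Immt these were Usp25 (r = 0.943), a deubiquitinase, Ndufb10 (r = 0.937), a subunit of respiratory complex I, and Snapc5 (r = 0.894), a subunit of the complex that drives small nuclear RNA transcription. All of them lie in the Immt run of 22 rows. For Slc38a9 they were Vcp (r = 0.858), Ptcd2 (r = 0.841) and Smim10l1 (r = 0.802), and for Rmi1 Atrn (r = 0.902), Pprc1 (r = 0.834) and Palld (r = 0.831). Atrn, in row 12843, lies in the run before that of Rmi1, and none of these 6 shares a run with its gene.

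Genes that work with the 3 genes were taken from lists of partners. Of 24 genes of MICOS, its partners and cristae shape, 16 had a probe, and none met the study's rule in any of the 6 comparisons of null or heterozygous with wild-type mice, which 3.26% to 6.21% of all probes did. With 8 to 12 probes of these genes tested in a comparison, nothing is read from that count. Between 8 and 10 of these genes were above background in a comparison. Their median differences lay between -0.0226 and 0.0223, against -0.00830 to 0.00846 over all probes tested.

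Of 48 genes of amino acid sensing at the lysosome and of the SLC38 family, 26 had a probe. The list gave 0 to 2 calls by the study's rule in each comparison among 18 to 19 probes tested, or 11 in COX-1-/- cortex, near the 3.26% to 6.21% of all probes, so nothing is read from it about the pathway. Mtor, the kinase of the complex that Slc38a9 signals to, rose in the hippocampus of COX-2+/- mice, where its mean Z was 0.514 ± 0.0259, from 0.0502 ± 0.0387 in wild-type mice (SD, n = 3, z ratio 3.89, limma adjusted p = 0.00768). It alone of the list's 19 probes tested there passed limma, which 2.82% of 8041 probes did, and its run of rows was not examined. In the cortex it met the rule in the other direction, at 0.0515 ± 0.0453 in COX-2-/- and 0.0424 ± 0.0779 in COX-2+/- against 0.217 ± 0.0214 in COX-2+/+ mice (SD, n = 3, z ratios -1.63 and -1.63), and did not pass limma there (adjusted p = 0.583 and 0.697). Castor1, a cytosolic arginine sensor, met the rule as lower in COX-1-/- cortex (z ratio -3.13). Wdr24, a subunit of GATOR2, met it as higher there (1.66), and Rragc, a Rag GTPase, as higher in COX-1-/- hippocampus (1.63). None of these 3 passed limma.

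Of 27 genes of Holliday junction dissolution and resolution, 15 had a probe and 1 to 9 were above background in a comparison. Only Fancm, a DNA translocase of the Fanconi anaemia pathway, met the rule, as higher in COX-2-/- cortex, at 0.564 ± 0.0357 against 0.390 ± 0.149 (SD, n = 3, z ratio 1.71, limma adjusted p = 0.475). That is 1 of 10 probes tested, where 4.32% of all probes met the rule.

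Markers of other cell types were sparse on the array. Of 6 neuronal markers 2 had a probe, of 6 astrocyte markers 2, of 6 microglia markers 2, of 6 oligodendrocyte markers 0, of 4 endothelial markers 1, of 4 choroid plexus markers 1 and of 3 blood markers 2. In the second part of the table were probes of Nefl for neurons, Slc1a3 for astrocytes, C1qa and C1qb for microglia. It also held 13 probes of Alas2 and Hba-a1 for blood. The level of a list is the mean Z of these probes on an array, and probes of the first part were not used. The neuronal and astrocyte levels thus rest on a single gene each. The astrocyte level was below 0, the background limit, on all hippocampus arrays and all cortex arrays of the COX-2 line.

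In the cortex the neuronal probes ran from -0.181 to 0.0862 in COX-1+/+, from -0.0591 to 0.0481 in COX-1-/-, from 0.0994 to 0.143 in COX-2+/+ and from 0.103 to 0.177 in COX-2-/- mice, overlapping within each line. The wild-type groups of the lines did not overlap for them, nor for 21.3% of the single probes tested. The astrocyte probes ran from -0.346 to -0.322 in COX-2+/+ and from -0.274 to -0.219 in COX-2-/- cortex, without overlap, where 17.6% of single probes had none. The microglia and blood probes overlapped between null or heterozygous and wild-type cortex.

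In the hippocampus several lists stood apart from the wild type. Of the single probes tested, 33.3% had no overlap in COX-2+/-, 17.1% in COX-2-/- and 21.8% in COX-1-/- hippocampus, so this was common. In COX-2+/- mice, where Slc38a9 lay below the wild type and Mtor was higher, the neuronal probes ran from 0.0626 to 0.0879 against 0.151 to 0.221 in COX-2+/+ mice. The astrocyte probes ran from -0.391 to -0.315 against -0.211 to -0.105, and the blood probes from 0.179 to 0.236 against 0.272 to 0.302, so all of these were lower without overlap. In COX-2-/- hippocampus the astrocyte probes, at -0.247 to -0.214, and the blood probes, at 0.209 to 0.256, were lower than in the same wild-type arrays without overlap. In COX-1-/- hippocampus the neuronal probes were higher, at 0.183 to 0.206 against 0.147 to 0.179. The microglia probes overlapped in each of these comparisons. The part of these markers in the differences of the 3 genes and of Mtor was not tested.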

How the data were processed

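The authors labelled cDNA with a radioisotope, read the membranes with a phosphoimager and ArrayPro, and deposited Z scores of the natural log intensity per array. Each part of the table was standardised on its own, and genes were named from the platform annotation. The Z scores were used as deposited. Group means were modelled in R 4.3.3 with limma 3.58.1, over the 15 arrays of a region or the 18 of the COX-2 line, with moderation over all usable rows and Benjamini-Hochberg adjustment over probes with a mean Z above 0. The Z test and limits followed the study's rule. The z ratio was divided by the SD of the differences of all probes. This gave the z ratios that the study printed for Immt in cortex (-5.49 and 2.16). The printed formula names the SD of all genes on an array, which is 1 and gave no calls. Both tests were tried on simulated data. The rows of the first part, with identical values in most COX-1 cortex arrays, were left out there, except in the SD of all differences. Members, partner lists and likeness rule (the 3 probes of other single genes with the highest r) were chosen with earlier results of these data known. Other software was Python 3.11.15, pandas 2.3.3, numpy 2.4.6 and matplotlib 3.10.9. No depth applies to arrays, and their number limits the precision. Replicate numbers were checked as pairs: of 7 pairs of groups checked, every correlation of same-numbered deviations was above 0.1 only between COX-1+/+ and COX-2+/+ hippocampus (0.187, 0.103 and 0.257), where the labels give no shared source. Alternatives were other normalizations, filters, sets of arrays, priors, a replicate block and leaving out each array.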

Additional observations from a re-analysis of the deposited data

Results flagged for a closer look

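For 3 results every array of a group moved one way and every array of the group set beside it the opposite way, and these differences between groups were not tested. Immt was below wild type in all COX-1-/- and above it in all COX-2-/- cortex arrays, and the effects of the lines differed by 0.706. Rmi1 did the reverse, with a difference of -0.307. Both follow from the choice of the genes. In the COX-1 line Immt was below wild type in all null cortex arrays and above it in all null hippocampus arrays, a difference between the regions of 0.653, and the cortex side of it also belongs to that choice. Of the 21 other rows of its run, all were lower in COX-1-/- cortex, with a median of -0.254. In COX-1-/- hippocampus 19 of the 21 were higher, with a median of 0.0932. With the run median subtracted, Immt differed by -0.235 and 0.0771 in turn. The part of the run in this result was not tested.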

How the results depend on the processing

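Under the alternatives tried, 299 of 303 limma results for the 3 genes in 6 comparisons stayed on the same side of the threshold and 4 passed it. All 4 concern hippocampus minus cortex in COX-2+/- mice: Immt at -0.226 and Slc38a9 at -0.217 with the median of each run of 22 rows removed (chosen after seeing the data), Immt at -0.313 with only the groups compared in the fit (limma adjusted p = 0.0134), and Rmi1 at -0.133 with a running median over neighbouring rows removed (limma adjusted p = 0.0436). No result reversed, though 21 that did not pass differed in sign. Of 288 z ratios 243 kept their call, 43 lost it and 2 gained it, with no reversal of a called value. A z ratio beyond 2 or a mean Z above 0.5 ended both cortex calls of Slc38a9 (-1.77 and 1.82) and of Rmi1 (1.61 and -1.62) and none of Immt. With the SD taken within each part, and so without the identical COX-1 cortex values, COX-1-/- cortex fell to -1.42 for Slc38a9 and 1.29 for Rmi1. Immt reached 1.65 in COX-1-/- hippocampus under this setting and met the rule there. With both wild types as the control the calls were lost for Immt at -4.43, Slc38a9 at -0.666 and Rmi1 at 1.39 in COX-1-/- cortex, at 0.747, 0.826 and -1.35 in COX-2-/- cortex, and at 1.35 for Immt in COX-2+/- cortex. The running median gave 1.16 for Rmi1 in COX-1-/- and 1.38 for Slc38a9 in COX-2-/- cortex, and the removed run median gave 1.31 for Rmi1 in COX-1-/- cortex, 1.10 for Immt and 0.886 for Slc38a9 in COX-2-/- cortex, and 1.30 for Immt in COX-2+/- cortex. The cause of these changes was not tested. With an SD of 1 (added after seeing the data) the z ratio equals the difference in Z. The methods' formula names that SD, but the z ratios the study printed for Immt are those with the SD of all differences. With an SD of 1, 0 probes met the rule in each of the 6 comparisons of null or heterozygous with wild-type mice. Immt was at -0.487, Slc38a9 at -0.157 and Rmi1 at 0.143 in COX-1-/- cortex. In COX-2-/- cortex they were at 0.219, 0.184 and -0.164, and Immt was at 0.306 in COX-2+/- cortex.

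Leaving out each array in turn gave cortex z ratios in COX-1-/- mice from -6.75 to -3.01 for Immt. The call was lost without COX-1-/- replicate 3, at -6.75, through the P of the Z test. Slc38a9 ran from -2.70 to -1.01 (lost without COX-1-/- replicate 1 or 2 or COX-1+/+ replicate 2 or 3). Rmi1 ran from 1.26 to 1.81 (lost without replicate 2 or 3 of either group). In COX-2-/- cortex the z ratios ran from 1.58 to 2.23 for Immt. Those of Slc38a9 ran from 1.03 to 2.02 (lost without COX-2+/+ replicate 2, at 1.96, or 3, at 1.03). Those of Rmi1 ran from -1.72 to -1.18 (lost without COX-2-/- or COX-2+/+ replicate 2). In COX-1-/- hippocampus Immt ran from 1.12 to 1.62 and met the rule without COX-1+/+ replicate 3. In the hippocampus fits Immt ran from 0.00776 to 0.547 in COX-2-/- mice, from -0.159 to 0.380 for the difference between the lines, from -0.166 to 0.373 in COX-2+/- mice, and from -0.355 to -0.271 between the regions of COX-2+/- mice.

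A fit with the replicate number as a block changed no call of the 3 genes. The limma counts over all probes were 13 with the block against 25 in COX-1-/- hippocampus, 303 against 227 in COX-2+/- hippocampus, 512 against 423 between the wild-type groups and 1260 against 1063 between the regions of COX-2+/- mice, and they were 0 in COX-2-/- hippocampus both ways. Over all alternatives these counts ran from 0 to 154, 13 to 804, 30 to 2160, 511 to 2194 and 0 to 155, in the same order. The number of arrays, 3 a group, and signals near the middle of the array for Slc38a9 and Rmi1 limit what could be measured.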
